A study of Mus musculus with 23 samples.

Results

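A set of 152 genomic regions was open in duodenal crypts and in colon but closed in duodenal villi. They were chosen by peak calls alone, from 149024 regions made by merging the peaks of 23 libraries of mouse intestinal epithelium. A region was kept when at least 5 of 6 crypt libraries and at least 5 of 6 juvenile and adult colon libraries had a peak there and at most 1 of 6 villus libraries did. Closed means here that the authors' peak caller reported no peak, which is not a measurement of zero accessibility. The set is small because few regions met the crypt, colon and villus limits together. In 3481 regions the crypt and villus limits were met but at most 1 of 6 colon libraries had a peak. Of 11905 regions that met the crypt and colon limits, 11051 were also open in at least 5 of 6 villus libraries.

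Accessibility was measured by ATAC-seq, in which a transposase inserts sequencing adapters into open DNA. Juvenile Duodenum was taken at 12 days as whole epithelium, and Juvenile Colon at 15 days with 6 pups pooled per library. Adult Villi, Adult Crypt and Adult Colon came from mice of 90 days, the colon pooled from 2 mice per library, and Geriatric Villi, Geriatric Crypt and Geriatric Proximal Colon from mice of 21 months, the colon again pooled from 2. Adult and geriatric villi stayed on top of a strainer that crypts passed, so a fraction can hold cells of the other. Each group had 3 libraries except Geriatric Proximal Colon, which had 2, numbered 1 and 3. The sources used here name no strain or sex, and the labels name no treatment or allele for any group. Proximal colon was sampled at 21 months only, so age and part of the colon cannot be told apart in that group.

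The intestinal epithelium renews itself from crypts, pits that hold stem cells and their dividing progeny. In the small intestine the progeny move onto villi, where absorptive enterocytes and mucus-secreting goblet cells do the work of digestion and protection before they are shed. The colon has crypts and a flat surface but no villi, so a colon library mixes dividing and differentiated cells. In such bulk libraries a region open in fewer cells and a region less open per cell cannot be told apart.

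Between 14.4 and 47.9 M reads per library were kept for peak calling, and the lists held 11355 to 60519 peaks. The shortest 2 lists were those of Geriatric Proximal Colon, with 17026 and 11355 peaks, and the Juvenile Duodenum lists held 45258, 52365 and 49444. A share of regions with a peak depends on list length, so shares are also given for the 11355 strongest peaks of each library by −log10 p. One villus library, Adult Villi 1, stood apart from the other 5 in these regions. Without it the rule kept 236 regions, and without Juvenile Colon 3 it kept 231. With 1 library left out the rule still allowed 1 exception each in crypt, colon and villus, so both sets had to hold all 152. Marker genes of the labelled cell types were not examined, because the gene positions used for such a check were not of the mm9 build of the files.

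Within the rule's limits the regions were not uniform, and these counts describe the choice itself. In 82 regions no villus library had a peak, and in 70 a single one did. In 48 regions 1 crypt library lacked a peak and in 91 regions 1 colon library did. The full pattern of 6 crypt, 6 colon and 0 villus libraries was met by 19 regions. Of the 152 regions, Adult Crypt libraries had a peak in 145, 139 and 150 and Geriatric Crypt libraries in 152, 141 and 137. Juvenile Colon libraries had a peak in 140, 131 and 125 and Adult Colon libraries in 130, 148 and 147. The colon library with the fewest, Juvenile Colon 3, also had the shortest list of the 6, with 17377 peaks.

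Villus peaks in these regions were few, as the rule requires, and weak. The rule used villus peak calls, so these counts and strengths describe the choice. Adult Villi libraries had a peak in 36, 11 and 2 of the 152 regions and Geriatric Villi libraries in 7, 9 and 5. Adult Villi 1 thus supplied more of the single villus peaks than the other 5 libraries together. To compare strength across libraries, each peak was given its percentile, the share of peaks of the same library at or below its −log10 p. The single villus peaks had median percentiles of 13.2, 15.4 and 11.3 in Adult Villi 1 to 3 and of 1.85, 8.37 and 8.03 in Geriatric Villi 1 to 3. None was among the 11355 strongest peaks of its library.

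These regions were of moderate strength within the lists of both tissues, and percentiles do not set crypt against colon, because the crypt lists held 35222 to 60519 peaks and the colon lists 17377 to 32855. The median percentile over all their crypt peaks was 62.4, and over their colon peaks 45.5. Regions also open in villus had 84.5 and 75.4, and the 3481 crypt regions closed in both villus and colon had 52.4 and 17.8. Within the 152 regions the median crypt percentile ran from 9.59 to 97.4 and the median colon percentile from 9.32 to 86.5. A region strong in crypt was hardly more often strong in colon, with Spearman's rho = 0.101 across the 152 regions, which share libraries and are not independent. Widths ran from 231 to 1397 bp with a median of 548 bp. The median was 757 bp in regions also open in villus and 340 bp in regions open in crypt alone.

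At an equal number of peaks per library, more of these regions had a strong peak in colon than in crypt. In Adult Crypt 24.8% ± 3.8 of the 152 regions had one of the 11355 strongest peaks (SD, n = 3), and in Geriatric Crypt 25% ± 4.0 (SD, n = 3). The ranges overlapped, 20.4 to 27% in adults and 22.4 to 29.6% in geriatric mice. In Juvenile Colon the share was 44.1, 45.4 and 38.8%, and in Adult Colon 32.9, 34.9 and 39.5%. These ranges overlapped as well, and all 6 colon values lay above all 6 crypt values. No villus library had any. The order of colon and crypt was not particular to these regions. Regions also open in villus had means of 82.8% in Juvenile Colon and 79.4% in Adult Colon. Their means were 66.5% in Adult Crypt and 66.2% in Geriatric Crypt. Crypt, colon and villus enter the rule, so these shares carry no test.

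**Figure D1:**
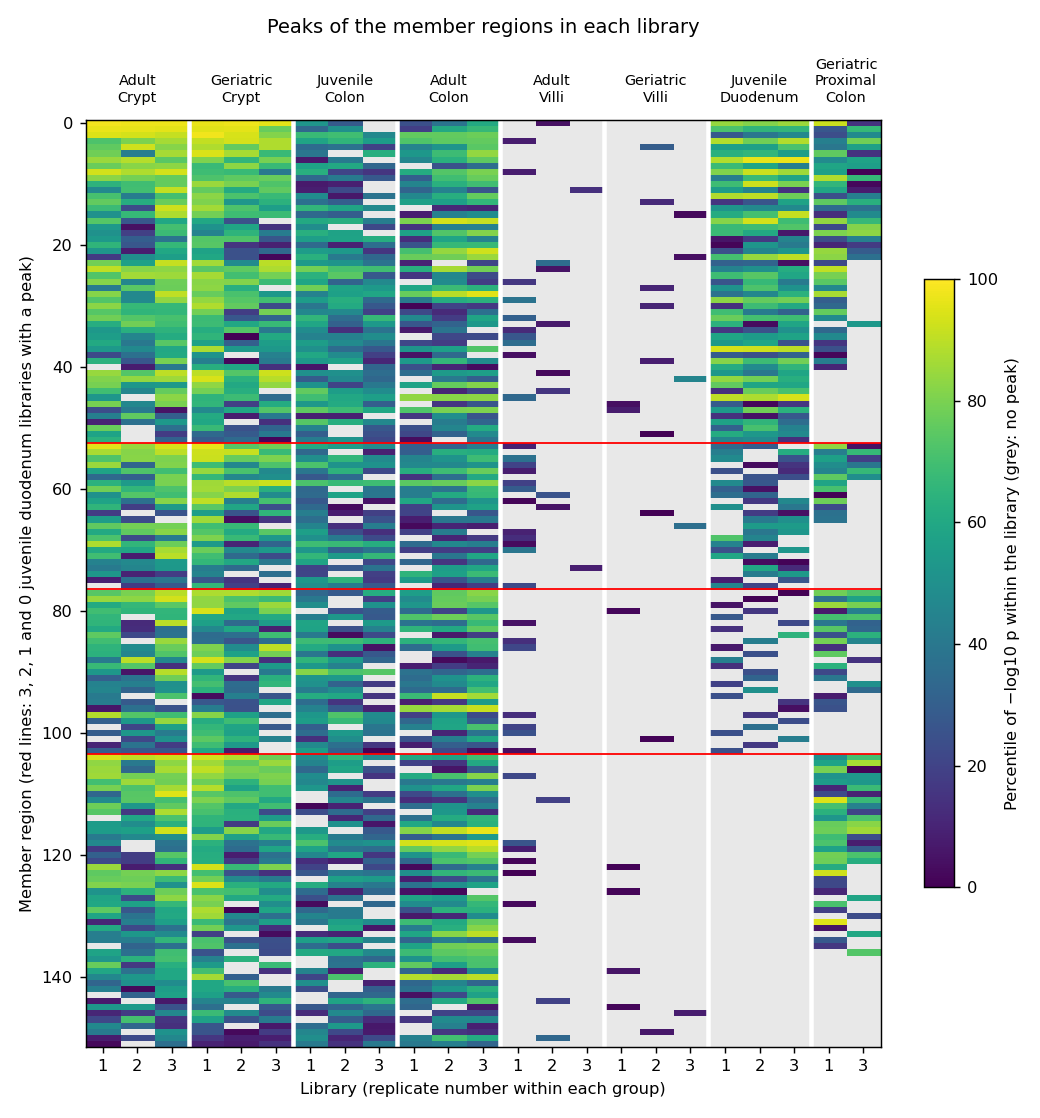
Each line is 1 of the 152 regions, each column 1 library under its group name, and colour gives the percentile of the peak's −log10 p within its library, with grey for no peak. Red lines separate regions with a peak in 3, 2, 1 and 0 Juvenile Duodenum libraries, which number 53, 24, 27 and 48. The villus columns are almost wholly grey, as the rule requires.

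In most of the regions crypt and colon peaks had nearby summits. The summit is the position of highest signal in a peak. Summits of a region lie within its width, with a median of 548 bp, so merging itself bounds their distance. The median crypt summit and the median colon summit of a region lay 30.5 bp apart (median over the 152 regions), and in 132 regions (86.8%) they lay within 100 bp. Every crypt peak overlapped every colon peak in 113 regions (74.3%), and no region joined crypt and colon peaks without any overlapping pair. In regions also open in villus the distance was 22.5 bp and 90.8% lay within 100 bp. Every pair overlapped in 87.5% of those regions.

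**Figure D2:**
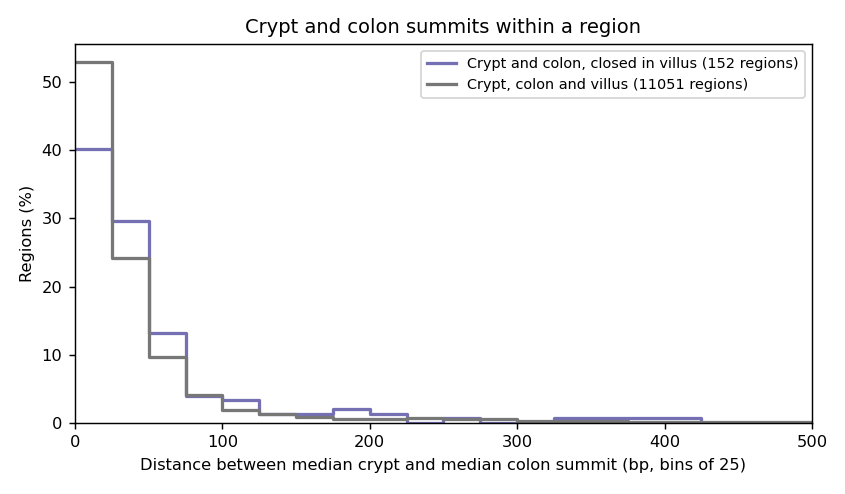
The horizontal axis gives the distance in bp between the median crypt summit and the median colon summit of a region, in bins of 25 bp, and the vertical axis the percent of regions, for the 152 crypt and colon regions closed in villus and for the 11051 also open in villus. Both curves fall steeply, and 86.8% of the former and 90.8% of the latter lie within 100 bp.

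The whole duodenum of 12-day-old mice was not used by the rule, and it had a peak in about as many of these regions as it left without one. Juvenile Duodenum 1, 2 and 3 had a peak in 77, 81 and 76 of the 152 regions, a mean of 51.3% ± 1.74 (SD, n = 3). All 3 libraries had a peak in 53 regions (34.9%) and none in 48 (31.6%). At least 2 had a peak in 77 (50.7%), against 49.0% of the 85469 regions with a peak in at least 2 libraries. Of those 85469 regions, 35.9% had a peak in all 3 and 37.6% in none, values near those of the 152 regions. Juvenile Duodenum peaks themselves admit regions to that background, while the 152 regions were chosen without them. The comparison is therefore not like for like, and nothing is read from it.

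The juvenile duodenum share lay between those of 2 other sets of crypt regions, of which only the first was also open in colon. Regions also open in villus had a Juvenile Duodenum peak in 96.2% ± 1.72 (SD, n = 3). The share in the crypt and colon regions closed in villus differed from it by -44.9 points and was lower in all 3 libraries. The 3481 crypt regions closed in villus and colon had one in 32.0% ± 1.97 (SD, n = 3), lower by 19.3 points in the mean and lower in all 3 libraries. The two-sided exact sign-flip permutation test over libraries gave p = 0.250 for each (adjusted p = 0.5 over 4 tests). With 3 libraries 0.250 is the smallest p it can give, so neither difference could pass 0.05. These sets also differed in peak strength, as given above, and the part of strength in the differences was not tested.

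The second group outside the rule was the Geriatric Proximal Colon. Its libraries 1 and 3 had a peak in 99 (65.1%) and 64 (42.1%) of the 152 regions, a mean of 53.6%. Both had a peak in 56 regions (36.8%), against 9.26% of the 85469 regions, and neither in 45 (29.6%), against 80.2%. At least 1 had a peak in 107 (70.4%), against 19.8%. Regions also open in villus had a peak in 79.3 and 60.3%, a mean of 69.8%, from which the 152 regions differed by -16.2 points (exact sign-flip permutation p = 0.5). Crypt regions closed in villus and colon had a peak in 16.5 and 6.84%, a mean of 11.7%, lower by 41.9 points (exact sign-flip permutation p = 0.5). The adjusted p was 0.5 for both exact tests, and 0.5 is the smallest raw p that 2 libraries allow. Each direction held in 2 of 2 libraries. The 152 regions were chosen for peaks in juvenile and adult colon, and the crypt regions closed in villus and colon for their absence. A higher share of the 152 in another colon group than in that set or in all regions is thus partly set by the choice.

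A set with the roles of crypt and villus exchanged was examined after the other results were known. By the same limits, 87 regions were open in villus and colon and closed in crypt. The Geriatric Proximal Colon libraries had a peak in 10.3 and 1.15% of them, a mean of 5.75%, which is 47.9 points below the share in the crypt and colon regions (exact sign-flip permutation p = 0.5, the smallest possible). Juvenile Duodenum had a peak in 63.2, 60.9 and 56.3% of them, a mean of 60.2%, from which its share in the crypt and colon regions differed by -8.84 points (exact sign-flip permutation p = 0.250, the smallest possible). Adjusted over all 6 such exact tests, p was 0.5 for each. The juvenile duodenum difference changed sign when Adult Villi 1 or Geriatric Villi 1 was left out, to 1.12 and 1.47 points. The colon peaks of the 87 regions had a median percentile of 57.1, above the 45.5 of the crypt and colon regions. The 87 regions were chosen for villus peaks, so the limit given above for Juvenile Duodenum as whole epithelium applies here too.

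**Figure D3:**
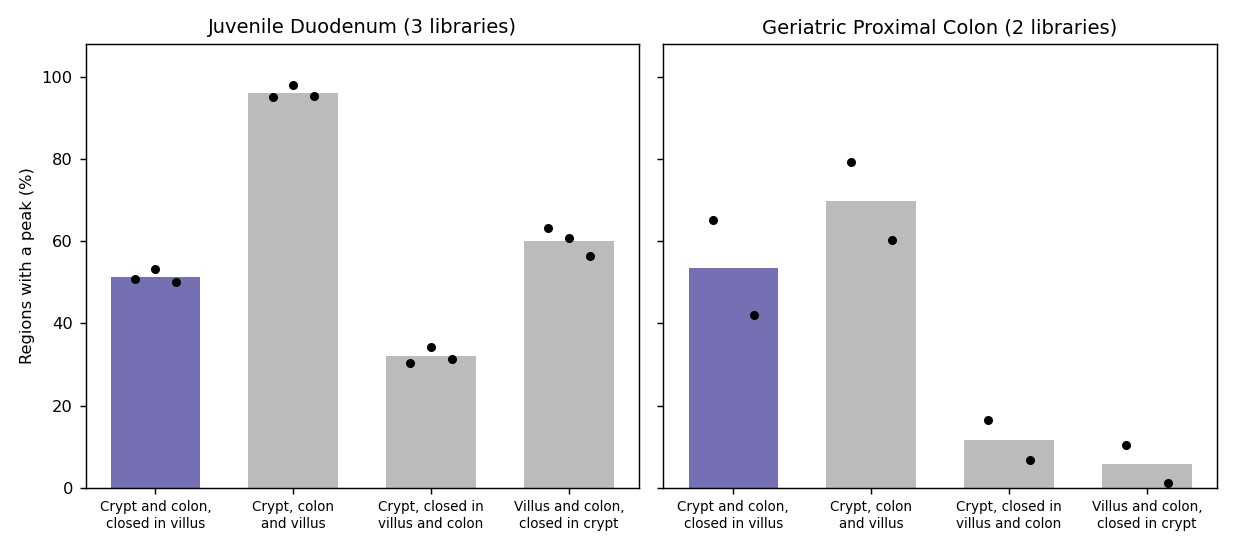
Bars give the mean percent of regions with a peak and dots the single libraries, for Juvenile Duodenum (3 libraries) and Geriatric Proximal Colon (2 libraries), in 4 sets of 152, 11051, 3481 and 87 regions from left to right. In Geriatric Proximal Colon the crypt and colon regions closed in villus reach a mean of 53.6%, against 5.75% for villus and colon regions closed in crypt.

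The juvenile duodenum and the geriatric proximal colon had near-equal mean shares of the 152 regions in the full lists. The difference was -2.30 points (exact permutation p = 0.800, with 0.1 the smallest that 3 against 2 libraries allow). Its sign changed in 11 of the 23 cases with 1 library left out. The lists compared were of unlike length. Among the 11355 strongest peaks of each library the Juvenile Duodenum shares were 8.55, 6.58 and 7.89% and the Geriatric Proximal Colon shares 43.4 and 42.1%. This count was chosen after the data were seen, and the strongest peaks of Geriatric Proximal Colon 3 are its whole list. There the groups did not overlap, with means of 7.68% and 42.8% (exact permutation p = 0.1, the smallest possible, and adjusted p = 0.300 over 3 tests). Where the juvenile duodenum had a peak in one of these regions, the peak was thus seldom among its 11355 strongest. Within the full lists the median percentile of such peaks was 47.9 to 52.5 in Juvenile Duodenum libraries. It was 49.5 and 51.4 in those of Geriatric Proximal Colon. The cut kept a smaller part of the Juvenile Duodenum lists, of 45258 to 52365 peaks, than of the Geriatric Proximal Colon lists, of 17026 and 11355. The part of list length in the difference among the strongest peaks was not tested. In regions also open in villus the strongest-peak means were 61.0% in Juvenile Duodenum and 63.0% in Geriatric Proximal Colon. In crypt regions closed in villus and colon they were 3.27% and 8.04%. The 152 regions were chosen for colon peaks and for the lack of villus peaks. The direction of the difference among them can thus be partly set by the choice.

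The number of villus libraries with a peak gave a finer scale. Of the 11905 crypt and colon regions, 9909 (83.2%) had a peak in all 6 villus libraries. Over regions with 0, 1, 2, 3, 4, 5 and 6 villus libraries the mean Juvenile Duodenum share was 43.5, 60.5, 68.3, 79.2, 81.6, 90.0 and 96.9%. This mean was higher at each step, already between the 82 and the 70 regions inside the rule. Between 3 and 4 villus libraries the ranges over Juvenile Duodenum libraries overlapped, 76.9 to 81.9% against 76.2 to 84.6%. The Geriatric Proximal Colon share was 59.8, 46.4, 44.6, 45.6, 45.6, 51.3 and 72.0%, with no such order. Among the strongest peaks the Juvenile Duodenum share was 5.69, 10.0, 10.7, 7.5, 10.4, 20.4 and 65.7%, so the step-by-step rise appeared in the full lists and not in the strongest peaks. Peak strength and width moved with this scale too. The median colon percentile was 46.2, 44.6, 46.6, 50.9, 52.9, 58.4 and 77.4 over the same steps, and the median width 538, 558, 544, 562, 595, 642 and 771 bp. The median crypt percentile was 59.1 to 66.0 in regions with 0 to 5 villus libraries and 86.1 in those with 6. The part of strength and width in the juvenile duodenum rise was not tested. Juvenile Duodenum was whole epithelium, which can hold villus cells, so a scale made from villus peaks is not independent of it.

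**Figure D4:**
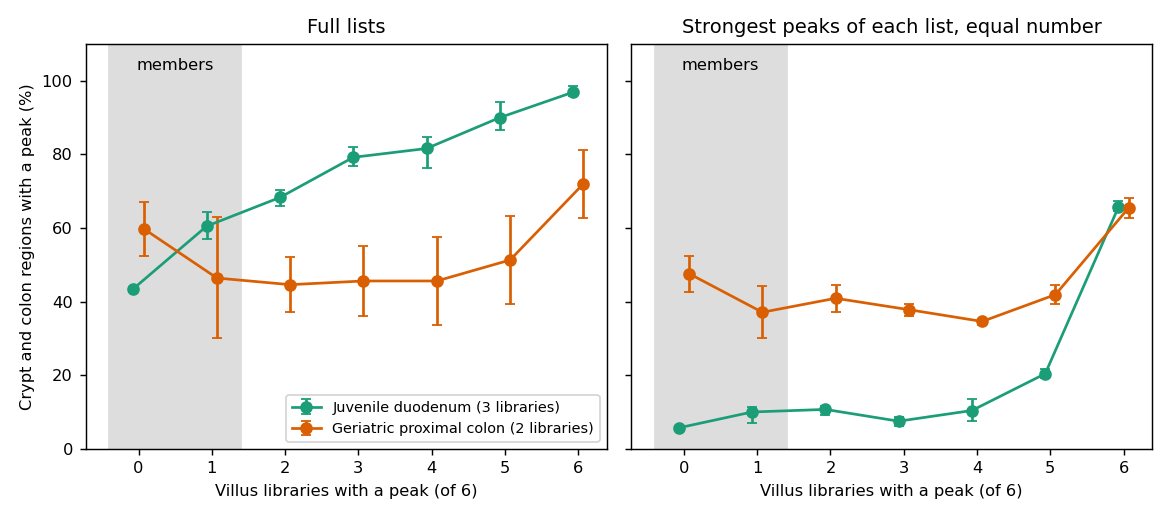
The horizontal axis counts the villus libraries with a peak among crypt and colon regions, and the vertical axis gives the percent of those regions with a peak, as the mean and the range over libraries, in full lists (left) and in the 11355 strongest peaks of each library (right). Juvenile Duodenum climbs from 43.5 to 96.9% in full lists, while Geriatric Proximal Colon stays between 44.6 and 59.8% up to 5 villus libraries.

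Regions at the edge of the rule had values on both sides. Among the 152, the 48 regions with 5 of 6 crypt libraries had mean shares of 39.6% in Juvenile Duodenum and 27.1% in Geriatric Proximal Colon. The 46 regions just outside, with 4 of 6, had 45.7% and 29.3%. The 91 regions with 5 of 6 colon libraries had 45.4% and 49.5%, and the 140 just outside had 47.9% and 45.4%. The 70 regions with 1 villus library had 60.5% and 46.4%, and the 121 with 2 had 68.3% and 44.6%. The 19 regions that met every limit in full had 63.2% and 76.3%.

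Region by region, both groups outside the rule divided the set. Of the 152 regions, 23 were open in all 5 of these libraries and 15 in none. All 3 Juvenile Duodenum libraries and no Geriatric Proximal Colon library had a peak in 12, and the reverse held in 18. The others had a mixed call in at least 1 of these groups. The number of Juvenile Duodenum libraries with a peak was hardly related to that of Geriatric Proximal Colon, with rho = 0.0583 across the 152 regions. The shares of all regions in these joint classes were not computed, so nothing is read from the counts. Regions open in all 3 Juvenile Duodenum libraries had a median crypt percentile of 69.8, against 55.9 in those open in none. For both against neither Geriatric Proximal Colon library the values were 70.5 and 50. Across the 152 regions the number of libraries with a peak followed the crypt percentile with rho = 0.241 in Juvenile Duodenum and 0.390 in Geriatric Proximal Colon. With the colon percentile rho was 0.0605 and 0.231. These regions share libraries, so the coefficients are descriptions.

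The regions named next were picked by strength within each of these classes. Region chr9:115265841-115266441 was open in both outcome groups. Its crypt peaks had percentiles from 72.2 to 93.5 with a median of 87.2, and its colon peaks from 55.4 to 75.8 with a median of 69.0. Its Juvenile Duodenum peaks stood at 88.5, 78.3 and 88.5, with fold enrichments over local background of 11.7, 9.68 and 12.3 as the authors' caller gave them. Its Geriatric Proximal Colon peaks stood at 43.2 and 78.2. The Juvenile Duodenum values lay within the crypt range, and the single villus peak stood at 8.20. Region chr1:175348625-175349424, 800 bp wide, had crypt percentiles from 81.3 to 98.0 and colon percentiles from 46.7 to 77.7, with no villus peak. There the Juvenile Duodenum values were lower, at 28.1, 39.5 and 46.6, and those of Geriatric Proximal Colon were 24.0 and 48. Region chr12:35701239-35702131 had 63.6, 65.7 and 55.6 in Juvenile Duodenum and 75.6 and 14.6 in Geriatric Proximal Colon.

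Other regions were open in the juvenile duodenum and had no peak in geriatric proximal colon. At chr17:43641210-43641616 the Juvenile Duodenum percentiles were 89.9, 87.8 and 94.0, with fold enrichments of 11.7, 11.0 and 12.8. Those folds lay above all crypt folds there, which ran from 4.80 to 8.63. Colon percentiles at this region ran from 56.4 to 83.4, and the 1 villus peak stood at 33.6. At chr16:96302959-96303280 the values were 83.9, 78.8 and 62.7 in Juvenile Duodenum and 28.6 to 47.5 in colon, and the villus peak stood at 45.0. At chr7:140221217-140221718 they were 53.1, 39.5 and 58.9 in Juvenile Duodenum and 73.1 to 92.2 in crypt. Each of these 3 regions had a peak in 1 villus library.

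The converse pattern was clearest at chr12:110118756-110119283. Crypt percentiles there ran from 78.0 to 94.2 with a median of 91.0, and colon percentiles from 46.9 to 69.8. No villus and no Juvenile Duodenum library had a peak, and the Geriatric Proximal Colon peaks stood at 49.5 and 70.1. Crypt and colon summits lay 14 bp apart. At chr9:61847858-61848354 crypt percentiles ran from 64.7 to 85.3, and Geriatric Proximal Colon stood at 55.4 and 53.1. At chr6:82829469-82830097 colon percentiles ran from 48.3 to 95.5 against 37.6 to 64.3 in crypt, and Geriatric Proximal Colon stood at 71.6 and 8.15.

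Some of the 152 regions had no peak in either outcome group. At chr11:73070839-73071389 the colon percentiles ran from 20.9 to 90.1 with a median of 86.5, the highest median colon value of the 152 regions, and crypt percentiles from 30.6 to 86.6. At chr9:75111822-75112192 crypt percentiles ran from 44.1 to 70.4 and colon percentiles from 33.5 to 71.5. At chr16:92369577-92369970 the medians were 62.9 in crypt and 64.2 in colon. All 3 had a peak in 5 of 6 crypt and 5 of 6 colon libraries.

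The regions of the full pattern that ranked highest by their weakest crypt or colon peak did not share an outcome. These were the 10 with the highest lowest percentile over the 12 crypt and colon libraries, and none had a villus peak. At chr12:65836935-65837626 Juvenile Duodenum stood at 93.4, 92.2 and 89.6, above every crypt library, which ran from 47.3 to 87.4. At chr2:22026757-22027270 it stood at 42.8, 67.6 and 58.5, with Geriatric Proximal Colon at 88.0 and 67.0. At chr19:29549659-29550157 it stood at 37.7, 46.2 and 63.9, with a peak at 87.0 in Geriatric Proximal Colon 1 and none in 3. At chr6:113002842-113003428 it stood at 76.1, 58.9 and 59.2, with no Geriatric Proximal Colon peak. Juvenile Duodenum had no peak at chr10:124799520-124800148 and chr2:128065899-128066660. At chr13:102248511-102249161 only its library 3 had one, at a percentile of 0.0526, while Geriatric Proximal Colon stood at 78.5 and 72.4. At chr5:151064985-151065322 a single library of each group had a peak.

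Some named regions kept no lead of crypt over villus libraries under other settings. With the strongest 11355 peaks alone, the lead was 0 at chr10:124799520-124800148, chr5:151064985-151065322, chr6:82829469-82830097, chr9:75111822-75112192 and chr16:92369577-92369970. With windows of 250 bp to each side of the summits it was 0 at chr16:96302959-96303280.

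The authors' deposited lists of differential regions add the amount of signal, which peak calls leave out. They hold regions for 14 comparisons in each direction, and none of the sources used here states their model or threshold. Of 94 of the 152 regions (61.8%) the authors' deposited lists say that Juvenile Colon was higher than Juvenile Duodenum, and of 2 (1.32%) the reverse. Over all 85469 regions the shares were 6.85% and 6.73%, and over the 11905 crypt and colon regions 30.8% and 1.5%. Juvenile Colon enters the rule and Juvenile Duodenum does not, so the direction of this difference is partly set by the choice.

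Within the colon, the authors' deposited lists placed more of these regions on the juvenile and geriatric side than on the adult side. Juvenile Colon was higher than Adult Colon in 27 regions (17.8%, against 1.72% of all) and lower in 10 (6.58%, against 2.32%). Over all crypt and colon regions these authors' deposited lists held 3.63% and 7.63%. Geriatric Proximal Colon was higher than Adult Colon in 19 (12.5%, against 2.32% of all) and lower in 2 (1.32%, against 2.04%), and the crypt and colon regions had 3.54% and 7.21% in these authors' deposited lists. Geriatric Proximal Colon was higher than Juvenile Colon in 15 (9.87%, against 1.27%) and lower in 10 (6.58%, against 3.54%) in the authors' deposited lists. Of the crypt and colon regions, these authors' deposited lists held 1.41% and 12.4%. These comparisons share colon libraries with each other. Juvenile Colon and Adult Colon both enter the rule, and the juvenile lists were shorter, with 17377 to 22299 peaks against 21271 to 32855, so the choice itself can favour regions strong in juvenile colon.

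Between colon and crypt, the authors' deposited lists held 31 of the regions as higher in Adult Colon (20.4%, against 9.75% of all) and 3 as higher in Adult Crypt (1.97%, against 6.40%). Over all crypt and colon regions these authors' deposited lists held 35.7% and 1.05%. In geriatric mice 8 were higher in Geriatric Proximal Colon (5.26%, against 0.604%) and 0 in Geriatric Crypt (0%, against 0.900%) in the authors' deposited lists. Of the crypt and colon regions, these authors' deposited lists held 0.622% and 0.134%. Between Adult Crypt and Geriatric Crypt the authors' deposited lists held none of the 152 in either direction, where 0.0644% and 0.0725% of all regions are listed.

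Lists against villus are given as description, since the rule used that contrast. The authors' deposited lists held 74 of the regions as higher in Adult Crypt than in Adult Villi (48.7%, against 4.10% of all) and 45 as higher in Geriatric Crypt than in Geriatric Villi (29.6%, against 2.41%). They were higher than villi in 105 cases in Adult Colon (69.1%, against 8.48%) and in 58 in Geriatric Proximal Colon (38.2%, against 1.96%) in the authors' deposited lists. Juvenile Duodenum was higher than Adult Villi in 32 (21.1%, against 7.92%) and than Geriatric Villi in 18 (11.8%, against 5.67%) in the authors' deposited lists. None was higher in villi in the authors' deposited lists, which held 3.65% of all regions for Adult Villi against Adult Crypt, 8.13% against Adult Colon and 6.92% against Juvenile Duodenum. For Geriatric Villi the authors' deposited lists held 4.58% against Geriatric Crypt, 2.44% against Geriatric Proximal Colon and 5.01% against Juvenile Duodenum, again with none of the 152. Between Adult Villi and Geriatric Villi the authors' deposited lists held none of them either, where 0.0433% of all regions are listed as higher in adult and 0.0749% as higher in geriatric mice. In 27 of the 152 regions no list of crypt or colon over villus held the region, so the call of a peak there was not matched by a listed difference in signal. The same count was not made over all regions, so whether 27 is many or few is not known.

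**Figure D5:**
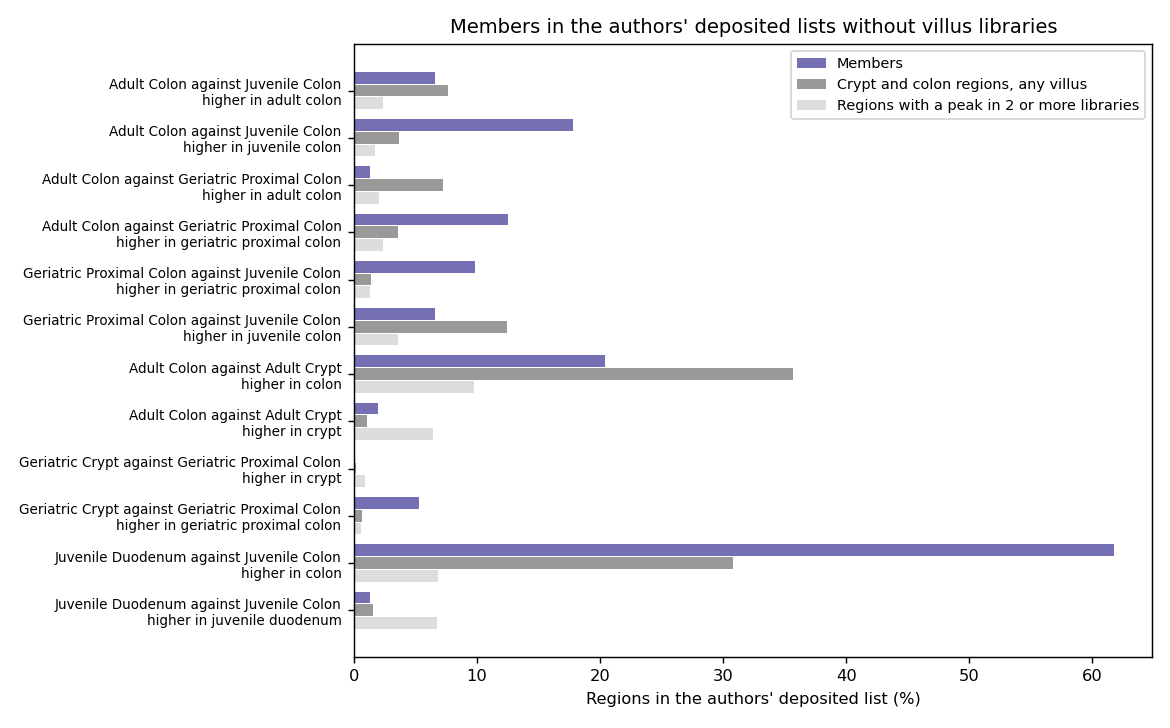
Bars give the percent of regions found in each of the authors' deposited lists that involve no villus library (those of Adult Crypt against Geriatric Crypt, with none of the 152, are left out), for the 152 crypt and colon regions closed in villus, the 11905 crypt and colon regions with any number of villus peaks, and the 85469 regions with a peak in at least 2 libraries. The longest bar of the 152 regions, 61.8%, belongs to the list higher in Juvenile Colon than in Juvenile Duodenum.

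The regions were scattered over the genome. Only 1 pair lay within 50 kb of each other, at chr9:75079683-75112192, a stretch of 32510 bp. A region open in all 23 libraries lay within 50 kb of 39 of the 152 (25.7%), close to the 25.8% of crypt regions closed in villus and colon and below the 39.1% of regions also open in villus. Another region open in crypt and closed in villus lay that near to 43 (28.3%), against 33.9% and 23.2%. A region open in villus and closed in crypt lay that near to 25 (16.4%), against 19.5% and 29.0%. Chromosome 6 held the most, 14 (9.21%, against 5.58% of all regions), and X held 2.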

How the data were processed

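Per the file headers, the authors called peaks on each library alone with MACS2 2.1.0.20150731, with no control library, an effective genome size of 1.87e+09, a q cutoff of 0.05, 1 read kept per position, a local background of 10 kb and a read extension of 68 to 210 bp. Per the file headers, each deposited peak has a pileup signal, a −log10 p-value, a −log10 q-value and a fold enrichment, a ratio over the local background. The submitters' processing notes name the mm9 build, cutadapt 1.9.1, Bowtie2, SAMtools 0.1.19, Picard 2.18.27, bedtools 2.17.0, deepTools and DiffBind, without their settings. None of the sources used here states whether reads were shifted for the transposase. The authors' deposited lists of differential regions hold positions only.

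Peaks of the 23 libraries were merged at an overlap of 1 bp. Shares of regions with a peak were computed per library and compared with two-sided exact permutation tests, over libraries between groups and by sign flips within libraries, with Benjamini-Hochberg adjustment (Python 3.11.15, numpy 2.4.6, scipy 1.17.1, matplotlib 3.10.9). P-values reflect only how far these libraries vary, part of which may be technical, and the labels do not say which libraries share animals. Depth was 14.4 to 47.9 M kept reads. The merging and the rule were checked on simulated peaks.

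The regions and lists were chosen with earlier results of these data known. Named regions are the 10 of the full pattern with the highest lowest percentile over 12 crypt and colon libraries, and 3 per class open or closed in all Juvenile Duodenum and all Geriatric Proximal Colon libraries. A further rule by gene, the gene lists, the cell type markers and the motif counts were not used, because the gene and promoter tables at hand are of another build and positions were not converted. Alternatives were another overlap, stronger peaks, a stricter rule, other merging, left-out libraries and a replicate block.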

Additional observations from a re-analysis of the deposited data

Results flagged for a closer look

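Adult Villi 1 had a peak in 23.7% of the 152 crypt and colon regions closed in villus. The next of the 6 villus libraries, Adult Villi 2, had 7.24%, and the others had 1.32 to 5.92%. The gap to the next library was 0.735 of the whole range, above Dixon's critical value of 0.625 for 6 libraries. Such a gap arises by chance in about 1 of 20 groups. Villus peaks enter the choice of the regions, so this share is bounded by the rule. Adult Villi 1 also had the longest list of the 6, with 51039 peaks against 35105 to 49471, and the part of list length in the gap was not tested. Its peaks in these regions had a median percentile of 13.2. Without this library the rule kept 236 regions, with mean shares of 59.2% in Juvenile Duodenum and 50.6% in Geriatric Proximal Colon.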

How the results depend on the processing

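The number of regions was 31 when peaks had to cover 50% of a region and 263 among the 11355 strongest peaks. It was 98 at a −log10 q of at least 5 and 19 under the full pattern. With 1 library left out, where the rule can only keep or add regions, it was 152 to 236. The Juvenile Duodenum share was 34.4, 57.8, 57.5 and 63.2% in that order, 7.68% with the 152 regions kept and only strongest peaks counted, and 48.3 to 59.2% with 1 library left out. The Geriatric Proximal Colon share was 40.3, 74.0, 40.3 and 76.3% in the same order, and 42.1 to 65.1% with 1 library left out. The difference between both groups turned to 17.2 points at −log10 q of at least 5 (exact permutation p = 0.200) and ran from -13.8 to 9.21 with 1 library left out, 11 of 23 turning its sign. The juvenile duodenum difference from villus and colon regions closed in crypt, examined after the data were seen, turned to 13.0 points among the strongest peaks and 18.7 under the full pattern, and ran from -14.5 to 1.47 with 1 library left out. The cause was not tested. The other 5 differences between sets of regions kept their sign in all 6 alternatives and all 23 left-out libraries. Of the 20 named regions, 10 moved with 50% coverage, 14 among the strongest peaks and 2 with windows around summits. The lead of crypt over villus libraries was lost in full in 5 of them among the strongest peaks and in 1 with windows around summits, and none reversed.

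Replicate numbers 1 and 3 are shared by Juvenile Duodenum and Geriatric Proximal Colon, and the labels do not say that they pair libraries. With a replicate block over these 2 pairs the difference was -3.29 points (exact sign-flip permutation p = 1.00, smallest possible 0.5). No call could change, since no test could pass 0.05.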
